A study of Mus musculus with 16 samples.

Results

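The genes examined here make up the major histocompatibility complex (MHC) class II presentation pathway in the ileum mucosa of mice that lack Schlafen 3 (Slfn3KO) and of wild-type (WT) mice. The 10 genes were chosen by symbol, and all 10 were found among the 46078 genes of the count table: H2-Aa, H2-Ab1, H2-Eb1, Cd74, Ciita, H2-DMa, H2-DMb1, H2-DMb2, H2-Oa and H2-Ob. All 10 passed the filter on low counts in every comparison. The study sequenced total RNA with a stranded kit from 16 mice on the C57Bl/6 background, all labelled 8 weeks old, although the methods of the study give an older age for mucosa collection. The mice fell into 4 groups of 4 by genotype and labelled sex: female Slfn3KO, female WT, male Slfn3KO and male WT. The Slfn3KO line came from another laboratory, and the WT mice were described as littermates. The libraries were whole mucosa, so a smaller number of cells of a type and less RNA per cell cannot be told apart in any value below.

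MHC class II molecules are pairs of an alpha and a beta chain that carry peptides from the endosome to the cell surface for recognition by CD4+ T cells. Cd74, the invariant chain, holds the empty pair together and guides it to the endosome, where H2-DM exchanges the last fragment of Cd74 for a peptide and H2-O, best known from B cells, restrains H2-DM. Ciita is a coactivator of class II transcription, and interferon gamma induces it with the help of Irf1. B cells, dendritic cells and macrophages carry class II at all times, and the absorptive epithelium of the small intestine is a further site of expression that interferon gamma and the microbiota can raise. The question addressed was how each gene varied over the 16 libraries, by genotype and against Cd79a, a component of the B cell receptor.

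Total counts per library lay between 20823279 and 30813117, so that 3 counts corresponded to between 0.100 and 0.151 CPM (counts scaled to the library total after TMM normalization). Slfn3 itself had 0 to 2 counts in the 8 Slfn3KO libraries and 0 to 19 counts in the 8 WT libraries, and the one WT library at 0 was male WT 4, so the transcript was near the limit of detection in both genotypes. The sex labels of 4 libraries went against their RNA. The libraries labelled female WT 3 and female WT 4 held next to no Xist (0.124 and 0 CPM) but 42.0 and 49.7 CPM of the Y-linked Ddx3y, whereas those labelled male WT 3 and male WT 4 held 437 and 401 CPM of Xist with Ddx3y at 0 and 0.042 CPM. Sex below is therefore the labelled sex. With the sexes together, the edgeR fold changes of the 10 members and the 4 ratios are also given without these 4 libraries. Fold changes of other genes, and DESeq2 values, are given only with them. Epcam, an epithelial adhesion molecule, lay between 2187 and 4713 CPM in all 16 libraries. The summed level of 10 B cell markers ran from 2.70 CPM in male Slfn3KO 1 to 957 CPM in male WT 3.

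All members except Cd74 and Ciita lie in the class II region of chromosome 17, between position 34092340 at the start of H2-Oa and position 34316199 at the end of H2-Eb1 (GRCm38, which is mm10). Promoters of 7 of the 10 were found in the RefSeq table for GRCm38.p6. Class II promoters are known for an X box, bound by the RFX complex, followed by a Y box, bound by NF-Y. The letters AACNNATG were used for the core of the X box and ATTGG for the Y box, both strands of the 250 bases before each start were searched, and a pair was counted when AACNNATG was followed by ATTGG on the strand of the gene with starts 25 to 35 bases apart. Such a pair was present in 0.0426% of 32851 promoters (14 in all), and its motifs do not overlap. AACNNATG was present on either strand in 7.71% of promoters and ATTGG in 33.8%, whether or not the other motif was there. Pairs were found for 4 members, H2-Eb1, H2-Ob, H2-DMb1 and H2-DMb2. The stretches from 138 to 39 bases before the start are shown for chain genes that varied little with Cd79a (H2-Eb1 and H2-Aa) and for the 3 genes that varied with it (H2-Ob, H2-DMb2 and H2-Oa), with both motifs in capitals and each written along the strand of the gene.
H2-Eb1, chr17:34305729-34305828, plus strand: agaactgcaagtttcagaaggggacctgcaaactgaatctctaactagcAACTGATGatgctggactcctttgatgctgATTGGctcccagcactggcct
H2-Aa, chr17:34287862-34287961, minus strand: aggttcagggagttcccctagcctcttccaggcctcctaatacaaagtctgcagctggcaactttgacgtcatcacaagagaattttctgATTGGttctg
H2-Ob, chr17:34238767-34238866, plus strand: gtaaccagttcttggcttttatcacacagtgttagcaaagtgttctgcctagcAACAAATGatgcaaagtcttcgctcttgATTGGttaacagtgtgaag
H2-DMb2, chr17:34145111-34145210, plus strand: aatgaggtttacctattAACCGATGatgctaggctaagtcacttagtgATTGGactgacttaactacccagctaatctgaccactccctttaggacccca
H2-Oa, chr17:34092241-34092340, plus strand: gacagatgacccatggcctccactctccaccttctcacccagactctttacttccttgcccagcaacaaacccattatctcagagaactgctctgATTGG

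The motif starts were 30 bases apart in H2-Eb1, 28 in H2-Ob and 31 in both H2-DMb1 and H2-DMb2. In the windows of H2-Aa and H2-Oa the letters ATTGG were present and AACNNATG was not. Only these exact letters were searched, so an X box with other letters would have been missed. The promoter pair was thus present both in H2-Eb1 and H2-DMb1, whose levels did not follow Cd79a, and in H2-Ob and H2-DMb2, whose levels did.

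Per length, as TPM (counts divided by exon length and scaled to the library), the median level over the 16 libraries ran in the order Cd74 (4798 TPM), H2-Aa (1763 TPM), H2-Ab1 (1490 TPM), H2-Eb1 (1290 TPM), H2-DMb1 (196 TPM), H2-DMa (181 TPM), Ciita (24.3 TPM), H2-DMb2 (5.39 TPM), H2-Ob (5.19 TPM) and H2-Oa (3.34 TPM). Cd74 exceeded H2-Aa in 16 of 16 libraries, and H2-Ab1 exceeded H2-Eb1, H2-Eb1 exceeded H2-DMb1 and H2-DMa exceeded Ciita in 16 of 16. The other neighbours changed places in some libraries. H2-Aa was above H2-Ab1 in 14, H2-DMb1 above H2-DMa in 13, Ciita above H2-DMb2 in 12, H2-DMb2 above H2-Ob in 9 and H2-Ob above H2-Oa in 13 of 16. The genes also differed in how far they varied. The highest library was 4.06 times the lowest for H2-DMa and 11.3 times for H2-Aa, against 87.0 times for H2-DMb2, 86.7 times for H2-Oa and 173 times for H2-Ob.

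The 3 chain genes and Cd74 were high in every group and varied together. H2-Aa, the alpha chain of the I-A molecule, was at 699, 1195, 1811 and 1091 CPM in female Slfn3KO 1 to 4 and at 2148, 182, 1314 and 1028 CPM in female WT 1 to 4. In the male groups it was at 448, 2208, 1665 and 2037 CPM in Slfn3KO 1 to 4 and at 1408, 1081, 1796 and 2255 CPM in WT 1 to 4. The groups overlapped throughout, and the lowest libraries, female WT 2 and male Slfn3KO 1, were 1 of each genotype. Cd74 was at 1574, 2469, 2978 and 2124 CPM in female Slfn3KO and at 4120, 479, 2846 and 2115 CPM in female WT. In males Cd74 was at 1093, 3759, 2707 and 3906 CPM in Slfn3KO and at 2512, 1911, 3080 and 3363 CPM in WT. The same pair of libraries was lowest again. H2-Ab1, the beta chain of I-A, ranged from 222 to 1646 CPM, and H2-Eb1, the beta chain of I-E, from 130 to 868 CPM, with female WT 2 lowest and male WT 4 highest for both. The I-E alpha chain locus, listed as H2-Ea-ps, had 0 or 1 counts in every library.

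Ciita, the coactivator, was at 31.6, 50.5, 74.1 and 42.4 CPM in female Slfn3KO 1 to 4 and at 60.2, 12.7, 64.1 and 61.0 CPM in female WT 1 to 4. In males it was at 10.9, 51.4, 49.4 and 65.8 CPM in Slfn3KO and at 56.4, 39.3, 103 and 75.7 CPM in WT. Male Slfn3KO 1 and female WT 2 were again the lowest, and male WT 3 was the highest. H2-DMa, the alpha chain of the peptide exchange factor, lay between 32.5 and 142 CPM, and H2-DMb1, one of its beta chains, between 19.4 and 152 CPM, both lowest in female WT 2.

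The second H2-DM beta chain gene, H2-DMb2, and both chains of H2-O showed another pattern. H2-DMb2 was at 2.88, 1.51, 4.27 and 1.36 CPM in female Slfn3KO 1 to 4 and at 1.86, 9.52, 30.0 and 35.9 CPM in female WT 1 to 4. In males it was at 0.901, 0.873, 6.39 and 9.31 CPM in Slfn3KO and at 0.868, 0.771, 61.5 and 13.6 CPM in WT. Female WT 1 thus lay within the Slfn3KO range and the other female WT libraries above it, and male WT 3 and 4 lay above it. Male WT 1 and 2, at 26 and 22 counts, lay slightly below the lowest Slfn3KO library, male Slfn3KO 2 at 22 counts. H2-Oa, the alpha chain of H2-O, was at 1.59, 0.900, 1.83 and 0.602 CPM in female Slfn3KO, 0.804, 3.05, 10.8 and 13.3 CPM in female WT, 0.324, 0.278, 2.90 and 3.52 CPM in male Slfn3KO and 0.467, 0.456, 21.5 and 3.95 CPM in male WT. H2-Ob, its beta chain, had the same order of libraries at the top, with 125 CPM in male WT 3, 81.4 CPM in female WT 4 and 62.4 CPM in female WT 3, and ran down to 0.721 CPM in male Slfn3KO 1. The 4 libraries whose sex labels went against their RNA were the 4 highest for all 3 genes and for Cd79a, and all 4 are WT, so that whatever sets them apart and the genotype cannot be told apart in these genes. Of the 50-base stretches in annotated H2-DMb1 transcripts, 22.7% also occurred in H2-DMb2, and of those in H2-DMb2 25.9% occurred in other genes, mostly H2-DMb1. The reads were 50 bases long, so reads from those stretches cannot be assigned and the level of H2-DMb2 is uncertain to that extent. For H2-Oa, H2-DMa and Ciita the only shared stretches were on the opposite strand, and the counting used strand.

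**Figure D1:**
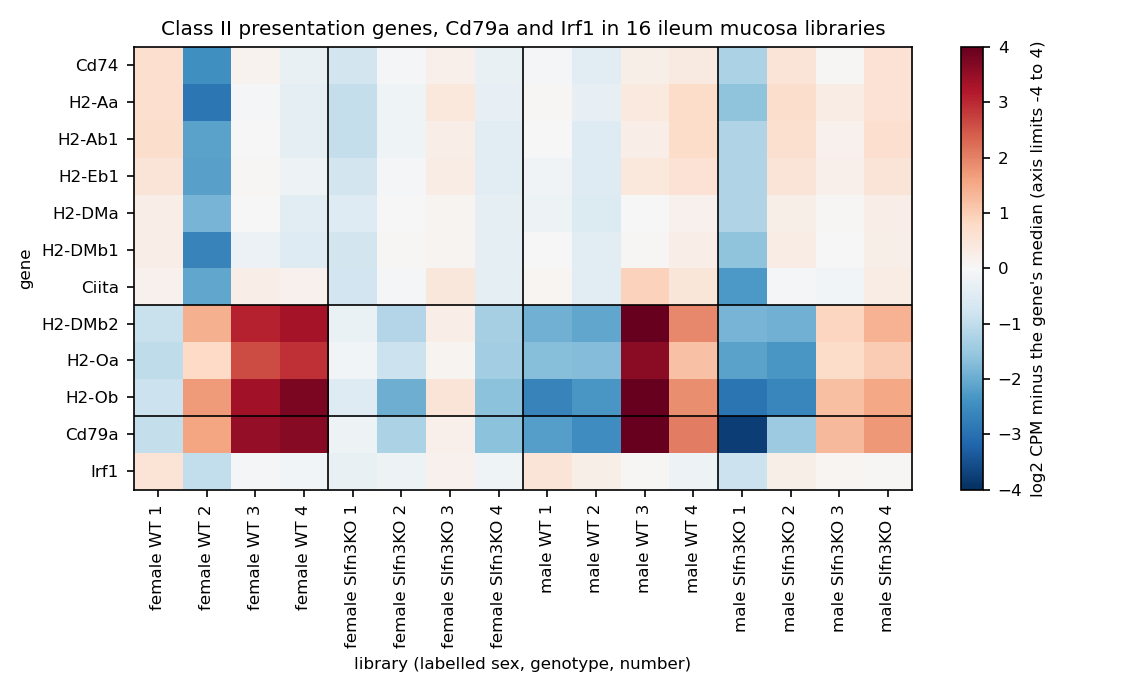
Heat map of log2 CPM minus each gene's median over the 16 libraries (colour, limits -4 to 4), with genes in lines and libraries in columns grouped by labelled sex and genotype. The upper 7 genes were low together in female WT 2 and male Slfn3KO 1, while H2-DMb2, H2-Oa and H2-Ob were high in the libraries where Cd79a was high, above all male WT 3 at 89.0 CPM of Cd79a.

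Across genotypes no gene passed the threshold in any comparison of all libraries. The threshold was an adjusted p under 0.05 in the quasi-likelihood test of edgeR, adjusted by Benjamini-Hochberg over all genes tested, and a change of at least 1.5-fold, and 0% of genes met it with the sexes together (14822 tested), in females (14064), in males (14124) and in the interaction of genotype with labelled sex (14822). At an unadjusted p under 0.05, 7.1% of all genes were lower and 4.84% higher in Slfn3KO with the sexes together, 8.56% lower and 8.58% higher in females, 1.98% lower and 1.86% higher in males, and 5.26% were lower and 5.8% higher in the interaction. Among the 10 members, 3 were lower at that level and 0 higher with the sexes together, 3 and 0 in females, 0 and 0 in males, and 0 and 0 in the interaction. DESeq2's Wald test called 54, 506, 14 and 19 genes in the same comparisons, and among the members it called H2-DMb2, H2-Oa and H2-Ob in females. In edgeR without the WT libraries numbered 3 and 4, whose sex labels went against their RNA, 359 genes met the threshold in the interaction. None of the 10 members was among them, and 0 genes met it in the other comparisons.

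For the chain genes and Cd74 the fitted difference was small beside its error. With the sexes together, the log2 fold change of Slfn3KO over WT was -0.00 ± 0.39 (SE) for H2-Aa, -0.04 ± 0.34 for H2-Ab1, -0.00 ± 0.32 for H2-Eb1 and 0.01 ± 0.34 for Cd74. H2-DMa was at 0.10 ± 0.26 and H2-DMb1 at 0.09 ± 0.33, and Ciita at -0.31 ± 0.37. Without the WT libraries numbered 3 and 4 these 7 lay between 0.16 ± 0.47 (H2-Ab1) and 0.29 ± 0.34 (H2-DMa). An SE of that size leaves room for changes of that order in either direction, so a difference of this kind was not detectable with 8 mice against 8. The median over the 10 members was -0.02, beside -0.00 over all genes tested, with 7 members at negative and 3 at positive values. The medians in each sex alone were -0.04 in females and -0.06 in males, beside -0.01 and -0.00 over all genes.

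The 3 members lower at an unadjusted p under 0.05 were H2-DMb2, H2-Oa and H2-Ob. With the sexes together the log2 fold change was -2.54 ± 0.86 for H2-DMb2 (adjusted p = 0.327), -2.21 ± 0.81 for H2-Oa (adjusted p = 0.333) and -2.76 ± 1.0 for H2-Ob (adjusted p = 0.333) in edgeR's quasi-likelihood test. In females alone the values were -2.95 ± 0.82, -2.51 ± 0.79 and -3.38 ± 0.95, with an adjusted p of 0.236, 0.238 and 0.236 in edgeR and 0.00554, 0.0220 and 0.0203 in DESeq2. In males alone they were -2.18 ± 1.41, -1.95 ± 1.34 and -2.21 ± 1.60, each with an adjusted p of 0.925 in edgeR.
Cd79a had a negative value too, at -2.65 ± 0.98 with the sexes together. In that edgeR fit all 10 B cell markers were lower at an unadjusted p under 0.05, with a median of -2.98, beside 7.1% of all genes. At the same level 10 were lower in females and 0 in males, beside 8.56% and 1.98% of all genes. Fold changes of these markers without the WT libraries numbered 3 and 4 are not given here. Without the WT libraries numbered 3 and 4 the pooled values were 0.20 ± 0.91 for H2-DMb2, 0.41 ± 0.79 for H2-Oa and 0.09 ± 1.20 for H2-Ob, in males they became 2.40, 1.90 and 3.04, and in females they stayed negative at -1.20 ± 0.69, -0.67 ± 0.63 and -1.53 ± 0.85. With log2 CPM of Cd79a as a covariate they were -0.12 ± 0.23, -0.06 ± 0.24 and -0.11 ± 0.22. Cd79a followed these 3 genes with r of 0.97 to 0.98 and had a negative value itself. The fit with it was therefore bound to shrink their values and cannot test a genotype difference in them. Leaving out male WT 3 alone gave -1.74 for H2-DMb2, -1.36 for H2-Oa and -1.89 for H2-Ob with the sexes together, and -0.19, 0.14 and 0.088 in males.

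**Figure D2:**
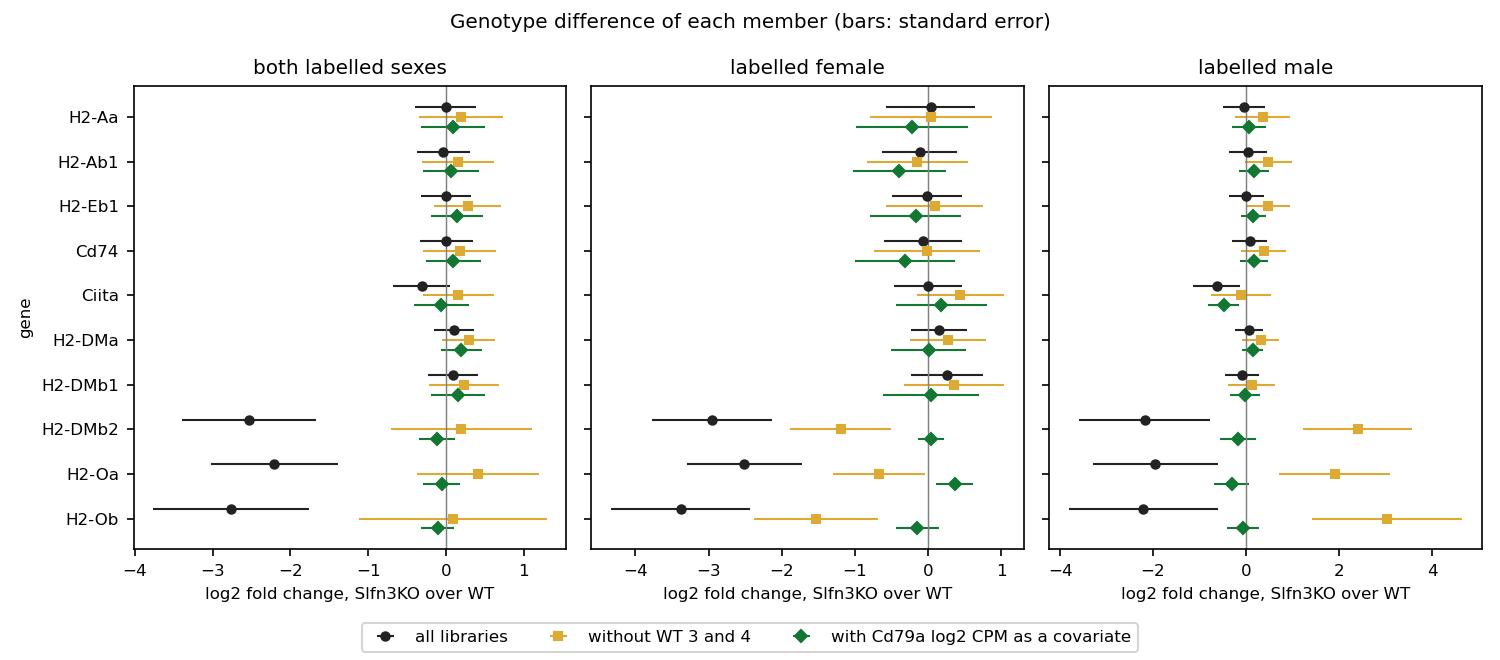
Log2 fold change of Slfn3KO over WT (horizontal axis, bars are the standard error) for each of the 10 members (vertical axis) with both labelled sexes, labelled females and labelled males, over all libraries, without the WT libraries numbered 3 and 4, and with Cd79a log2 CPM as a covariate. Only H2-DMb2, H2-Oa and H2-Ob lay below -2 in the fit of all libraries with both sexes, at -2.54, -2.21 and -2.76, and none of the 3 did so under either alternative there. Cd79a followed these 3 genes closely, so the fit with it was bound to shrink their values.

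Set against Cd79a, 3 of the 10 genes followed it closely over the libraries and 7 did not, although the difference between their correlations was not tested. Over the 16 libraries, log2 CPM of H2-DMb2 had a Pearson r of 0.98 with that of Cd79a and a Spearman rho of 0.97, H2-Oa had 0.97 and 0.97, and H2-Ob had 0.98 and 0.98, each with a permutation p of 1e-05, the smallest that 100000 resamples can give, and an adjusted p of 3.33e-05 over the 10 members. Without the 2 libraries farthest from the median of Cd79a, r was 0.99, 0.98 and 0.99. As deviations from the labelled group means it was 0.97, 0.97 and 0.98, and without the WT libraries numbered 3 and 4 it was 0.95, 0.94 and 0.96. Cd79a ran from 0.252 CPM in male Slfn3KO 1 to 89.0 CPM in male WT 3, and the widest step between neighbouring libraries, from 18.6 to 52.0 CPM, was 18.4% of the range in log2 CPM and left 13 libraries below it.

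The other 7 members had r between 0.10 for H2-DMb1 and 0.48 for Ciita. For H2-Aa r was 0.15 (permutation p = 0.581, adjusted p = 0.646) and rho 0.23 (permutation p = 0.399). For Cd74 r was 0.16 (permutation p = 0.576, adjusted p = 0.646) and rho 0.31 (permutation p = 0.239). Ciita stood between the groups, with r at 0.48 (permutation p = 0.0597, adjusted p = 0.149) and rho at 0.66 (permutation p = 0.00649, adjusted p = 0.0162), and r was 0.12 without the 2 libraries farthest from the median of Cd79a and 0.21 without the WT libraries numbered 3 and 4. As deviations from the labelled group means its r was 0.57 (permutation p = 0.0204, adjusted p = 0.0509), and without female WT 2 and male Slfn3KO 1 it was 0.65 (permutation p = 0.0113, adjusted p = 0.0283). Female WT 2 and male Slfn3KO 1, the libraries low in class II, had Cd79a at 13.4 and 0.252 CPM.

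A line on the CPM scale gives the level each gene would have at no Cd79a, as a description. For H2-Oa the intercept was 0.217 ± 0.151 CPM (SE) and the slope 0.230 ± 0.00498 CPM per CPM of Cd79a, for H2-DMb2 0.159 ± 0.468 and 0.655 ± 0.0154, and for H2-Ob -0.755 ± 0.904 and 1.38 ± 0.0298. All 3 intercepts were within about 1.5 SE of zero. For H2-Aa the intercept was 1358 ± 197 CPM and the slope 2.33 ± 6.497, for Cd74 2487 ± 312 and 4.54 ± 10.3, and for H2-DMa 103 ± 10.03 and 0.119 ± 0.330, so these slopes were smaller than their errors. For Ciita the intercept was 43.7 ± 5.73 CPM and the slope 0.544 ± 0.189. Within the male WT group, WT 1 at 0.901 CPM of Cd79a had 1408 CPM of H2-Aa and 0.467 CPM of H2-Oa, and WT 3 at 89.0 CPM of Cd79a had 1796 and 21.5 CPM. Pearson r between members over the 16 libraries, given as a description, was 0.86 to 0.99 among the 7 genes, 0.99 among the 3 genes and 0.01 to 0.42 between the groups. The summed level of 8 dendritic cell markers lay between 7.53 and 44.1 CPM, with male Slfn3KO 1 lowest and male WT 3 highest, that of 8 macrophage markers between 40.1 and 110 CPM with the same libraries at the ends, and the part of these cells in the class II level was not tested.

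**Figure D3:**
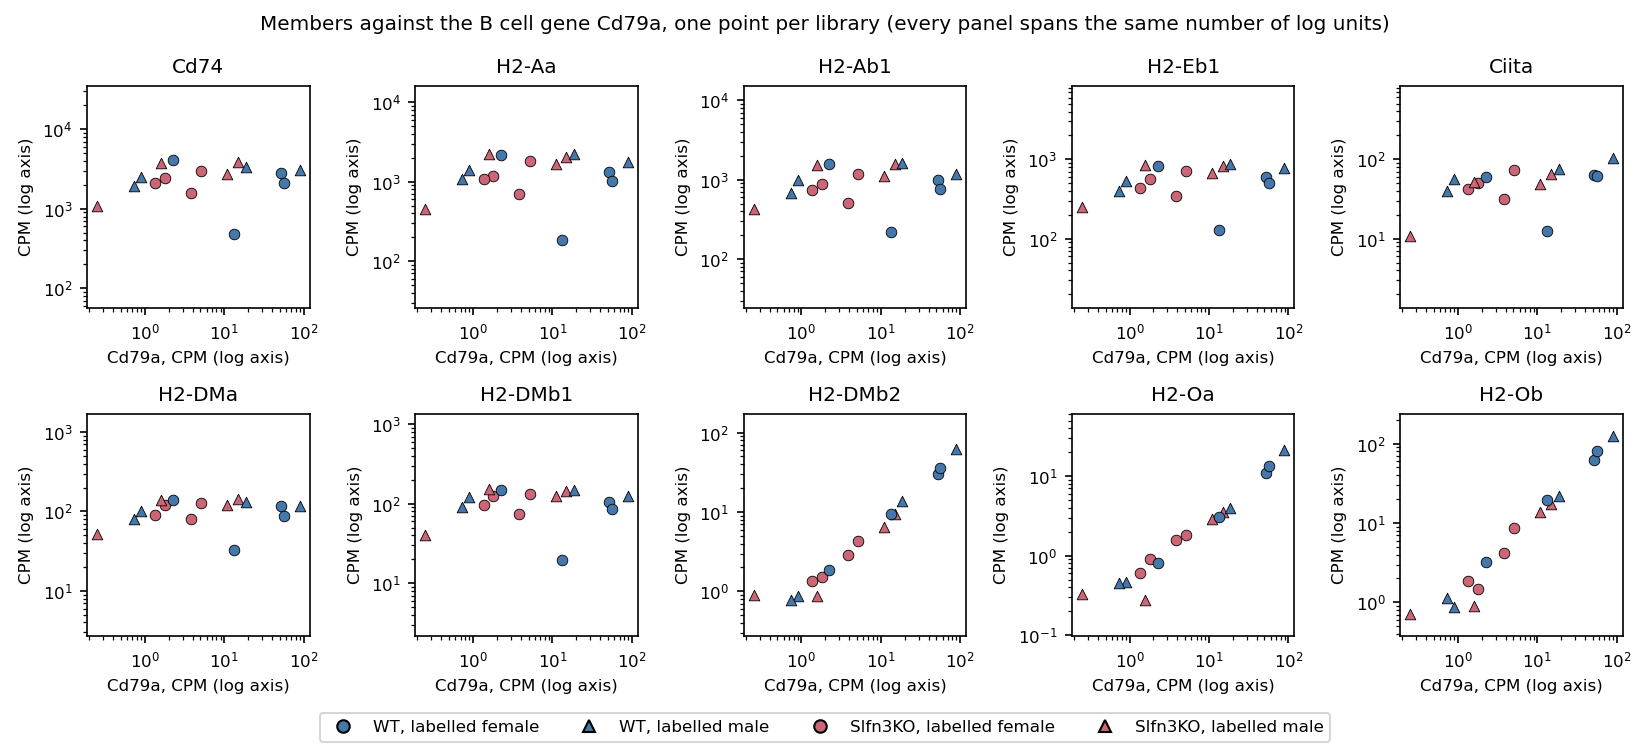
CPM of each of the 10 members (vertical log axis) against CPM of Cd79a (horizontal log axis), with 1 point per library, coloured by genotype and shaped by labelled sex. H2-DMb2, H2-Oa and H2-Ob lay along Cd79a with r of 0.97 to 0.98, whereas r was 0.10 to 0.48 for the other 7 members, highest for Ciita, with female WT 2 and male Slfn3KO 1 below the rest.

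Ratios within a library set members against one another. H2-DMb2 made up 2.89% ± 1.92 (SD, n = 8) of H2-DMb1 and H2-DMb2 counts in Slfn3KO and 16.0% ± 14.8 (SD, n = 8) in WT, a difference of -13.2 percentage points (exact permutation p = 0.0408, adjusted p = 0.285 over 12 tests). The WT libraries split between 0.705% and 32.9%, and the Slfn3KO libraries stayed between 0.571% and 6.07%. The log2 ratio of H2-O to H2-DM, per length, was -6.16 ± 1.42 in Slfn3KO and -4.32 ± 2.61 in WT (exact permutation p = 0.104, adjusted p = 0.285). The log2 ratio of Cd74 to the 3 chain genes, per length, was 0.02 ± 0.12 in Slfn3KO and -0.02 ± 0.14 in WT (exact permutation p = 0.506, adjusted p = 0.651), and it kept between -0.30 and 0.19 in all 16 libraries although the genes themselves varied up to 11.3-fold. The log2 ratio of the 3 chain genes to Cd79a was 9.80 ± 1.498 in Slfn3KO and 7.87 ± 2.93 in WT (exact permutation p = 0.119, adjusted p = 0.285). In 1 sex alone the smallest p that 70 labellings allow is 0.0286, and no ratio passed after adjustment. Without the WT libraries numbered 3 and 4 the differences with the sexes together were -6.03 percentage points for the H2-DMb2 share, -0.13 for H2-O to H2-DM, 0.0092 for Cd74 to the chain genes and 0.063 for the chain genes to Cd79a. Leaving out female WT 1, a library flagged below, widened 3 differences in females. They became -25.8 percentage points for the H2-DMb2 share, -3.98 for H2-O to H2-DM and 4.33 for the chain genes to Cd79a. The exact permutation p was 0.0286 for each in females, and 0.00694, 0.0331 and 0.0347 with the sexes together. The adjusted p of 0.0463 for all of these left out the male tests, so it cannot be set beside the values over 12 tests. Female WT 1 was flagged for its own values of H2-O to H2-DM and of the chain genes to Cd79a. The p-values without it are therefore descriptions and cannot test a difference. Without male WT 3 the same 3 differences in males turned to 0.132 percentage points, 0.31 and -0.35. With the sexes together they were then -9.48 percentage points, -1.25 and 1.31 (exact permutation p = 0.0833, 0.231 and 0.253).

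**Figure D4:**
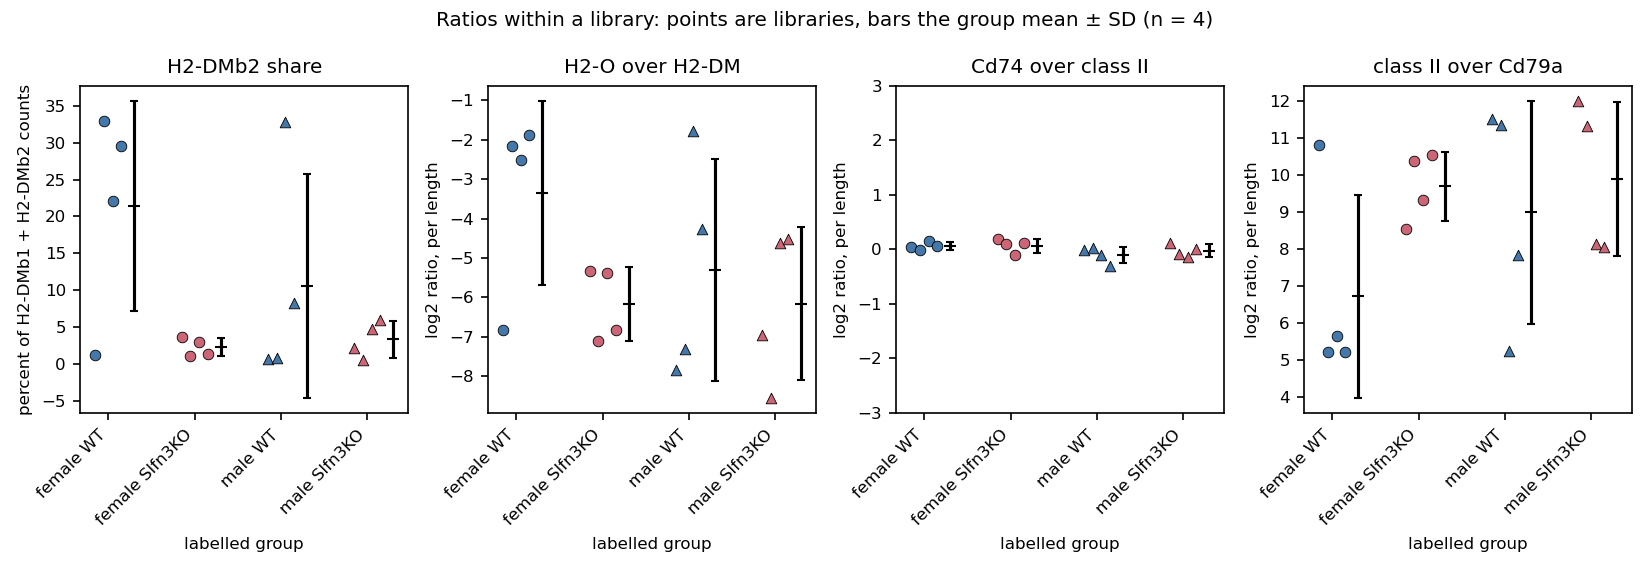
The 4 ratios (vertical axes, percent or log2) in each labelled group (horizontal axis), with points for libraries and bars for the mean ± SD of 4 libraries. WT libraries were spread over the whole range of the H2-DMb2 share, from 0.705% to 32.9%, while Cd74 over class II kept between -0.30 and 0.19 in every group.

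The libraries low in class II were also low in some genes of the interferon gamma pathway, a relation looked for after the values had been seen, so the genes given are those that showed it. Irf1, an interferon-induced transcription factor, was at 184 CPM in female WT 2 and 197 CPM in male Slfn3KO 1, against 290 to 523 CPM in the other 14 libraries. Socs1, a feedback inhibitor of interferon signalling, was at 6.39 and 4.07 CPM in these libraries and the chemokine Cxcl9 at 3.22 and 2.63 CPM, and Ifng itself had 0 counts in both and 3 to 33 counts elsewhere. The receptor and kinase genes of the pathway did not show this. Ifngr1 was at 252 and 287 CPM in these libraries against 186 to 283 CPM in the others, and Ifngr2, Jak1 and Jak2 lay within the range of the others. The summed level of the 9 listed pathway genes, 1047 and 1116 CPM, also lay within the range of the other 14, from 1020.4 to 1597 CPM. Epcam was at 3284 and 3136 CPM there, within the range of the other libraries.
Over the 16 libraries, r with Irf1 was 0.82 for H2-Aa (permutation p = 0.00028, adjusted p = 0.00185 over 20 relations) and rho 0.56 (permutation p = 0.0269, adjusted p = 0.0597). For Cd74 r with Irf1 was 0.81 (permutation p = 0.00028, adjusted p = 0.00185) and rho 0.58 (permutation p = 0.0226, adjusted p = 0.0564). For Ciita r with Irf1 was 0.76 (permutation p = 0.00231, adjusted p = 0.00355) and rho 0.36 (permutation p = 0.178, adjusted p = 0.254). Without female WT 2 and male Slfn3KO 1, which are also the libraries farthest from the median of Irf1, r with Irf1 was 0.47 for H2-Aa, 0.45 for Cd74 and 0.18 for Ciita, so the strength of the relation rested on them. Irf1 was taken up after its low values in these libraries had been seen, so the permutation p-values with it are descriptions and cannot test the relation. H2-DMb2, H2-Oa and H2-Ob had r of -0.14, -0.10 and -0.10 with Irf1. The log2 fold change of Irf1 between genotypes, -0.14 ± 0.19 (SE), was smaller than its error.

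**Figure D5:**
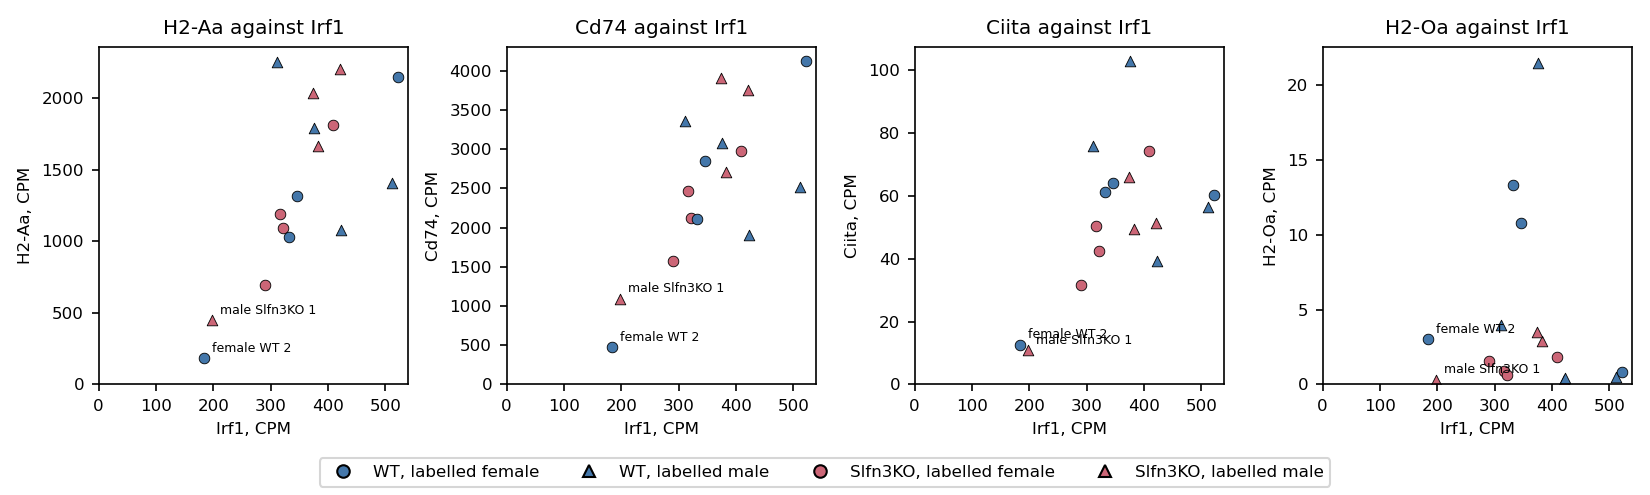
CPM of H2-Aa, Cd74, Ciita and H2-Oa against CPM of Irf1, with 1 point per library on linear axes, coloured by genotype and shaped by labelled sex. Female WT 2 and male Slfn3KO 1 lie at the lower left for H2-Aa, Cd74 and Ciita, and r without them was 0.47, 0.45 and 0.18.

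The genes most like the mean standardized log2 CPM of H2-Aa, H2-Ab1, H2-Eb1 and Cd74, among the tested genes outside the 10, were Skap2 with r = 0.88, Tnfsf13b with 0.87, Tap2 with 0.87, AW112010 with 0.86 and Cd96 with 0.86 over 16 libraries. Skap2 encodes an adaptor protein of haematopoietic cells, Tnfsf13b the cytokine BAFF, Tap2 a subunit of the peptide transporter of the class I pathway and Cd96 a receptor of T and natural killer cells. After both were replaced by residuals of a line on Cd79a, the 5 highest were Cd96 with 0.89, Barx2 with 0.88, Tnfsf13b with 0.88, Skap2 with 0.87 and Tap2 with 0.87. Tap2 lies in the same region as the H2 members. These are descriptions over libraries that share low values in 2 of them.

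Among lists of related genes no gene passed the threshold between genotypes. Of 7 promoter factors, 1 was lower at an unadjusted p under 0.05 with the sexes together, Rfx5, a subunit of the complex that binds the X box, at -0.35 ± 0.13 (adjusted p = 0.336, edgeR). Of 7 antigen processing enzymes all had negative values, from -0.27 to -0.03, and 1 was lower at that level, Ctss, the protease that trims Cd74, at -0.27 ± 0.12. Of 9 interferon gamma pathway genes all had negative values with the sexes together, with a median of -0.18, and 1 was lower at that level, the receptor kinase Jak1 at -0.23 ± 0.10. In females alone 6 of the 7 enzymes and 5 of 8 tested pathway genes were negative, and in males 5 of 7 and 7 of 9. Of 6 genes of surface turnover and costimulation all had negative values with a median of -1.47, and 4 were lower at that level: Cd83 at -2.25 ± 0.69, Cd40 at -1.88 ± 0.64, March1, the ubiquitin ligase that removes class II from the surface, at -1.82 ± 0.70, and Cd86 at -1.13 ± 0.48. None of these passed after adjustment. The summed level of the 6 genes was 215, 168, 178 and 218 CPM in female WT 1 to 4. It was 142, 167, 242 and 220 CPM in male WT 1 to 4, against 110 to 187 CPM in Slfn3KO. Fold changes of these 6 genes without the WT libraries numbered 3 and 4 are not given here. The further class II beta chain gene H2-Eb2 was at -2.72 ± 1.04, with the same high libraries as H2-Ob. Against these counts of lower and negative genes, all genes tested gave 7.1% lower at the same level and 7514 of 14822 with negative values.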

How the data were processed

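RNA sequencing reads of 16 ileum mucosa libraries (single reads) were trimmed with cutadapt, aligned with STAR to mm10 and counted per gene. The deposited counts are raw reads per gene from featureCounts 1.4.6 with reverse-strand counting per the file headers, whereas the methods of the study name HTSeq; aligner versions are not given in the sources used here. The deposited exon length of each gene was used only for values per length. Of 46078 genes, 45143 matched a symbol. No further per-sample column was left out.

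Counts were fitted with edgeR 4.0.16 (TMM factors, filterByExpr, robust quasi-likelihood F test, R 4.3.3), with labelled sex as a covariate when both sexes were pooled, and called at an adjusted p under 0.05 (Benjamini-Hochberg over all genes tested) and at least 1.5-fold. The SE is the log2 fold change divided by the root of F. CPM used TMM factors, and log2 CPM a prior count of 2. Ratios were compared by exact two-sided permutation of genotype within labelled sex, and relations by two-sided permutation of 100000 resamples, with scipy 1.17.1 and numpy 2.4.6. TPM was computed from the counts and exon lengths. Alternatives were DESeq2 1.42.0, RLE factors, other filters, a replicate block, leaving out libraries and Cd79a as a covariate. Relations to Irf1 and to 1 further gene that is not reported here (20 in all, adjusted together), and fits without female WT 2 and male Slfn3KO 1, were chosen after seeing the data. The fits were tested on simulated data.

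Same-numbered libraries correlated in their deviations from the group means at 0.14 to 0.52 in males and at -0.36 to 0.14 in females, and the labels do not say what a number stands for. The samples are labelled as separate mice. The members and gene lists were chosen with earlier results of these data known. Genes named are the 10 members, Cd79a, genes of the lists, the 5 genes most like the chain genes and Cd74 with and without Cd79a removed, Slfn3, Xist and Ddx3y. Promoters come from RefSeq (GRCm38.p6) and transcripts from GENCODE M21 (GRCm38).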

Additional observations from a re-analysis of the deposited data

Results flagged for a closer look

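In a group of 4 libraries, a value counted as standing apart when its gap to the nearest other library exceeded Dixon's 95% limit of the range of the group. Chance gives about 1 in 20 groups such a value, and 56 groups (10 genes and 4 ratios in 4 groups) were examined. Ciita in female WT 2 was at 12.7 CPM, against 60.2 to 64.1 CPM in the other 3 female WT libraries. H2-Oa in male WT 3 was at 21.5 CPM, against 0.456 to 3.95 CPM in the other 3 male WT libraries, and H2-Ob there was at 125 CPM, against 0.868 to 21.8 CPM. The log2 ratio of H2-O to H2-DM in female WT 1 was -6.82, against -2.51 to -1.88 in the other 3 female WT libraries. The log2 ratio of the 3 chain genes to Cd79a in female WT 1 was 10.8, against 5.22 to 5.67.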

How the results depend on the processing

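No gene passed the threshold under RLE factors, no filter on low counts, a minimum of 10 counts in every library, the replicate block, Cd79a as a covariate, no fold threshold or leaving out any 1 library. An unadjusted p under 0.05 with 1.5-fold gave 984 genes pooled, 1366 in females, 272 in males and 946 for the difference between the sexes, DESeq2 gave 54, 506, 14 and 19, and leaving out the WT libraries numbered 3 and 4 gave 359 for the difference between the sexes, with none of the 10 members among them. The replicate block changed no call, and the same numbers correlated across genotype in males but not in every pair of females. Values below are log2 fold changes of Slfn3KO over WT for genes, percentage points for the H2-DMb2 share and log2 for the other ratios. Without a filter on low counts the sign turned for H2-Aa to 0.0041 and H2-Eb1 to 0.0030 pooled. With the replicate block the sign turned for H2-Aa to 0.065, H2-Ab1 to 0.030 and H2-Eb1 to 0.050 pooled, and H2-Ab1 to 0.12, H2-Eb1 to 0.18 and Cd74 to 0.22 in females. The same setting turned H2-Ab1 to -0.055, H2-Eb1 to -0.073, Cd74 to -0.042 and H2-DMa to -0.015 in males, and H2-Ab1 to 0.18, H2-Eb1 to 0.26 and Cd74 to 0.26 for the difference between the sexes. Without the WT libraries numbered 3 and 4 the sign turned for H2-Aa to 0.20, H2-Ab1 to 0.16, H2-Eb1 to 0.28, Ciita to 0.16, H2-DMb2 to 0.20, H2-Oa to 0.41 and H2-Ob to 0.090 pooled, and H2-Eb1 to 0.090 in females. The same setting turned H2-Aa to 0.36, H2-DMb1 to 0.12, H2-DMb2 to 2.40, H2-Oa to 1.90, H2-Ob to 3.04, the H2-DMb2 share to 2.65, H2-O over H2-DM to 1.42, Cd74 over the chain genes to -0.029 and the chain genes over Cd79a to -1.55 in males, and H2-Aa to -0.31 and H2-DMa to -0.031 for the difference between the sexes. The same setting turned H2-DMb1 to -0.014 for r with Cd79a. With Cd79a as a covariate the sign turned for H2-Aa to 0.093, H2-Ab1 to 0.063 and H2-Eb1 to 0.14 pooled, and H2-Aa to -0.22, H2-DMb2 to 0.037 and H2-Oa to 0.36 in females. The same setting turned H2-Aa to 0.070 in males, and H2-Eb1 to 0.093, H2-DMb2 to 0.012 and H2-Oa to 0.46 for the difference between the sexes. Without female WT 2 and male Slfn3KO 1 the sign turned for Cd74 to -0.029 pooled, and H2-Aa to -0.32, Ciita to -0.32, H2-DMa to -0.14, H2-DMb1 to -0.075 and Cd74 over the chain genes to -0.019 in females. The same setting turned H2-Aa to 0.27 and H2-DMb1 to 0.20 in males, and H2-Aa to -0.59, Ciita to -0.013, H2-DMa to -0.44 and H2-DMb1 to -0.27 for the difference between the sexes. With RLE factors the sign turned for Ciita to -0.013 in females. With DESeq2 the sign turned for Ciita to -0.013 in females. Without division by length the sign turned for Cd74 over the chain genes to -0.0063 in females. Without the 2 libraries farthest from the median of Cd79a the sign turned for H2-Aa to -0.11, H2-Ab1 to -0.025, Cd74 to -0.074, H2-DMa to -0.056 and H2-DMb1 to -0.18 for r with Cd79a. Leaving out 1 library at a time gave -0.17 to 0.22 for H2-Aa, -0.18 to 0.18 for H2-Ab1, -0.16 to 0.15 for H2-Eb1, -0.15 to 0.20 for Cd74, -0.039 to 0.22 for H2-DMa and -0.085 to 0.24 for H2-DMb1 pooled. Leaving out 1 library at a time gave -0.32 to 0.52 for H2-Aa, -0.44 to 0.33 for H2-Ab1, -0.34 to 0.32 for H2-Eb1, -0.41 to 0.34 for Cd74, -0.32 to 0.18 for Ciita, -0.14 to 0.40 for H2-DMa, -0.075 to 0.62 for H2-DMb1 and -0.034 to 0.065 for Cd74 over the chain genes in females. Leaving out 1 library at a time gave -0.24 to 0.27 for H2-Aa, -0.13 to 0.32 for H2-Ab1, -0.15 to 0.27 for H2-Eb1, -0.099 to 0.35 for Cd74, -0.058 to 0.30 for H2-DMa, -0.25 to 0.20 for H2-DMb1, -2.51 to 0.14 for H2-Oa, -2.86 to 0.088 for H2-Ob, -10.5 to 0.13 for the H2-DMb2 share, -1.71 to 0.31 for H2-O over H2-DM and -0.35 to 1.73 for the chain genes over Cd79a in males. Leaving out 1 library at a time gave -0.29 to 0.55 for H2-Aa, -0.49 to 0.28 for H2-Ab1, -0.35 to 0.30 for H2-Eb1, -0.49 to 0.26 for Cd74, -0.21 to 0.34 for H2-DMa and -6.4e-05 to 0.70 for H2-DMb1 for the difference between the sexes. The cause of these changes was not tested. Every fold change whose sign turned had an SE above its size in the fit of all libraries, except those of H2-DMb2, H2-Oa and H2-Ob. H2-Oa, H2-DMb2 and H2-Ob had the fewest counts of the members in their lowest libraries, at 7, 22 and 20. The number of mice limits every comparison.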

Other observations

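Markers of other cell types were examined beside those of B cells. Of 8 dendritic cell markers 7 had negative log2 fold changes with the sexes together (median -0.27) and 2 were lower at an unadjusted p under 0.05 (Ccr7 at -2.05 ± 0.75 and Flt3 at -1.38 ± 0.59), and of 8 macrophage markers 7 were negative (median -0.18) and 1 was lower at that level (Mrc1 at -0.49 ± 0.19). Of 6 plasma cell markers 4 were negative (median -0.10) and 1 was lower (Irf4 at -1.48 ± 0.61). Of 8 epithelial markers 8 were negative with the sexes together (median -0.20) and 0 were lower at that level, while in males 6 were positive (median 0.04). Over all genes tested with the sexes together, 7.1% were lower at that level, and 7514 of 14822 had negative values. No marker passed after adjustment in edgeR, and the difference between the lists was not tested.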
